A study of Mus musculus with 18 samples.

Results

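Nbdy is the mouse gene for the microprotein NBDY, called mORF4 in the labels of these samples, and it is the gene targeted in the knockout studied here. It was taken as the row with its Ensembl identifier, ENSMUSG00000086316, 1 of the 10597 genes listed in each of 3 deposited tables (poly-A RNA, ribosome footprints and their ratio). The tables cover left ventricles of male C57BL/6 mice aged 20 weeks that received no treatment and were kept in normal housing. The hearts fall into mORF4/NBDY knockout (KO, 5 hearts, numbered 6 to 10) and wild type (WT, 4 hearts, numbered 1 to 4). Each heart gave 2 libraries, and the sources used here do not describe the knockout allele, so which bases of the gene it alters is not known here. Poly-A RNA measures transcripts that carry a poly-A tail. Ribosome footprints are the stretches of mRNA shielded by translating ribosomes.

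NBDY is a short protein known from human cells to bind EDC4, the scaffold of the complex that removes the cap from mRNAs before they are degraded. That complex gathers with untranslated mRNAs in cytoplasmic granules named P-bodies, and raised NBDY is known to disperse them. In human annotation the gene was first listed as a non-coding RNA, and footprints over its short reading frame are the kind of evidence by which such genes are recognised as coding.

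In the RefSeq annotation of GRCm38 the gene lies on chromosome X from 153723477 to 153741302, a span of 17826 bases on the plus strand. No RefSeq gene overlaps it on either strand. The closest annotated gene below it is Kctd12b, 27.1 kb away, and the closest above it is the pseudogene Smt3h1-ps, 41.9 kb away. The RNA kit does not mark strand, but no annotated partner shares the gene's bases. The window around its start site is printed because RNA from the locus was still counted in KO hearts. It covers chrX:153723304-153723603 (GRCm38.p6, plus strand, from RefSeq), with 250 bases before the start site of that window, 153723554, in lower case and the 50 bases from it on in capitals. That start site lies 77 bases inside the annotated gene, so the last 77 bases in lower case belong to the gene as well.
Nbdy promoter: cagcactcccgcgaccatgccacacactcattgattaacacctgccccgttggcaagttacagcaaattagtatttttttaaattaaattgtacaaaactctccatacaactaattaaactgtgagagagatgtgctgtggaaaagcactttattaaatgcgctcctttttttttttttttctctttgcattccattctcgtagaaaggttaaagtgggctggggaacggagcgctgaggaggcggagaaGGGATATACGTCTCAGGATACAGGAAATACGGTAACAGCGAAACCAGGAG
The window holds 42.3% G and C, against a median of 52.7% over 32851 RefSeq promoter windows of the same length, and 11 CG pairs against a median of 7. A run of 15 T stands before the start site. Read on both strands, the window has no match to the TATA box (TATAAA), the CCAAT box (CCAAT) or the GC box (GGGCGG), which occur in 13.6%, 37.4% and 35.7% of these windows.

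Values are normalized reads: the deposited values, which are whole multiples of 1 step in each library, as gene read counts divided by a size factor are. Dividing by that step gave back whole reads, and over the listed genes the RNA libraries held 15.8 to 20.2 M reads (mega-reads) in KO and 11.2 to 12.4 M in WT. Footprint libraries held 22.9 to 40.8 M reads in KO and 6.67 to 36.7 M in WT. All 10 ventricular cardiomyocyte markers examined, among them Myh6, Myl2 and Ttn, were listed with no library at 0. In bulk tissue, fewer cells of a type and less RNA per cell cannot be told apart. Tests used limma on log2(value + 1), adjusted by Benjamini-Hochberg over all genes with a mean of at least 10. A gene passed when its adjusted p was below 0.05. Fold changes are KO over WT on that log2 scale, which understates changes of low values.

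Ribosome footprints on Nbdy were far lower in KO hearts. The normalized footprint signal was 13.8, 16.3, 11.3, 10.9 and 19.0 in KO hearts 6, 7, 8, 9 and 10, against 107, 355, 151 and 119 in WT hearts 1, 2, 3 and 4. The highest KO heart lay 5.64 times below the lowest WT heart, so the groups did not overlap. As whole reads these values are 25, 17, 13, 11 and 23 footprints in KO hearts and 177, 103, 97 and 157 in WT hearts. Summed over hearts, 89 reads of 141 M fell on Nbdy in KO, or 0.631 RPM (reads per mega-read of the listed genes), and 534 of 87.5 M in WT, or 6.10 RPM.

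The log2 fold change of Nbdy footprints was -3.45 ± 0.48 (SE; n = 5 KO and 4 WT hearts; 95% interval -4.47 to -2.42; limma adjusted p = 0.0191). An exact two-sided permutation test over the 126 ways to split 9 hearts into 5 and 4 gave p = 0.0159, the smallest that this design allows. Of 9976 genes tested in footprints, 0.02% passed, lower in KO in each case. Every KO heart lay below every WT heart for 0.832% of genes, as for Nbdy. The limma call on Nbdy was lost without WT heart 1, 2 or 3, at adjusted p = 0.0978, 0.194 and 0.116. It was kept without any of the other hearts, and the log2 fold change ranged from -3.64 to -3.07 over all 9 omissions.

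**Figure D1:**
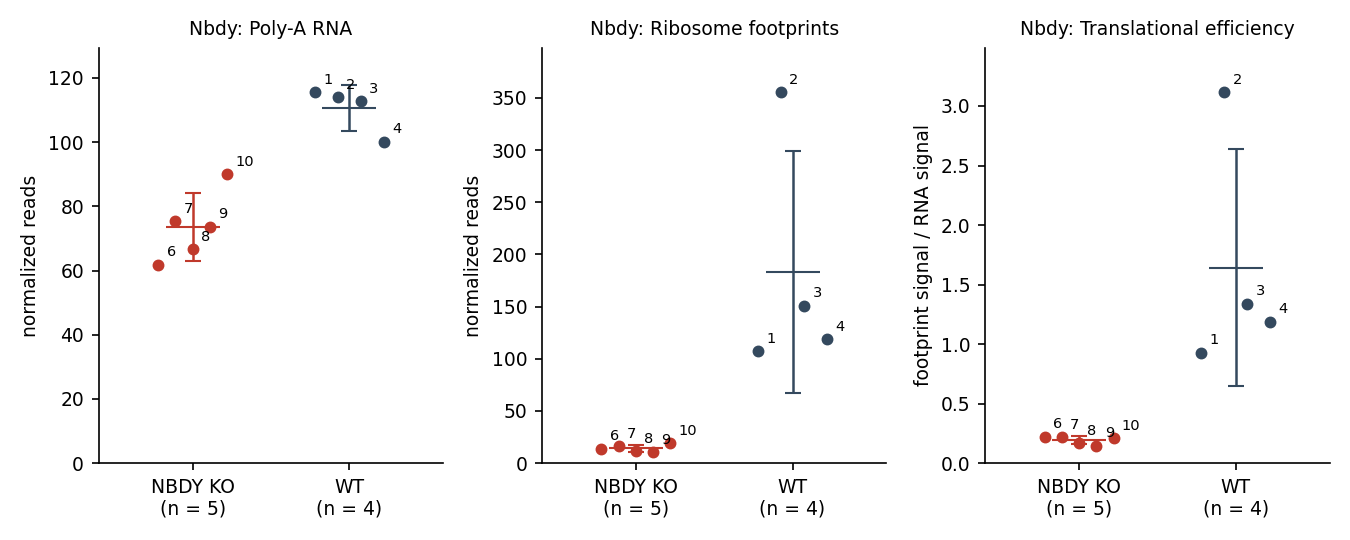
Nbdy in each heart, with KO hearts in red and WT hearts in dark blue, as normalized reads in poly-A RNA and in ribosome footprints and as translational efficiency, which divides footprints by RNA within a heart. Numbers are heart numbers, and the horizontal bar and whiskers are the mean and SD of 5 KO and 4 WT hearts. KO hearts lie below WT hearts in all 3 panels, and WT heart 2 stands far above the other WT hearts in footprints and in the ratio.

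A low level of footprint reads remained in every KO heart. Values are given per gene, so which part of Nbdy these reads lie on is not known here. No KO library was at 0, and the counting intervals (95%, exact Poisson, counting error only) of the 5 KO hearts overlapped one another, from 5.42 to 28.6 normalized reads. In WT, hearts 1, 4 and 3 formed a chain of overlapping intervals, from 92.1 to 124, 101 to 139 and 122 to 184. Heart 2 stood apart at 290 to 431. The mean of KO was 7.78% of WT with all hearts and 11.3% without WT heart 2.

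WT hearts varied more in Nbdy footprints than in Nbdy RNA. The coefficient of variation over 4 WT hearts was 63.5% for footprints, larger than that of 96.7% of the 9974 genes measured in both assays, whose median was 18.6%. For RNA it was 6.42%, larger than that of 27.2% of genes. Over 5 KO hearts it was 24.2% for footprints and 14.6% for RNA. WT heart 2 set most of the WT spread: without it the WT mean was 126 ± 22.7 normalized footprint reads (SD, n = 3), against 183 ± 116 (SD, n = 4) with it. The footprint library of heart 2 was the shallowest, and it lay farther from the rest of its group than any other footprint library, with a median absolute deviation of 0.31 on the log2 scale over 6956 well-measured genes, against 0.16 to 0.20 in the other 8. Nbdy in heart 2 was 1.51 above the mean of the other WT hearts on that scale, a deviation larger than that of 99.7% of these genes. Nbdy itself had signals too low to be among them, so it was ranked against genes with less counting noise. The part of that library's depth in its Nbdy value was not tested.

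Nbdy RNA fell far less than its footprints. The normalized RNA signal was 61.8, 75.5, 66.7, 73.7 and 90.0 in KO hearts 6, 7, 8, 9 and 10, against 116, 114, 113 and 100.1 in WT hearts 1, 2, 3 and 4. The groups did not overlap, but KO heart 10 and WT heart 4 were close, with counting intervals of 73.2 to 109 and 78.6 to 126. The mean was 73.5 ± 10.7 in KO and 111 ± 7.10 in WT (SD, n = 5 and 4), so KO kept 66.5% of the WT level. The log2 fold change was -0.59 ± 0.13 (SE; 95% interval -0.87 to -0.31; limma adjusted p = 0.00246), and the exact permutation p was again the smallest possible, 0.0159.

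The RNA fall has to be read against a table in which many genes differ. Of 10580 genes tested in RNA, 49.4% passed, 25.1% lower and 24.3% higher in KO, and 20.6% had every KO heart below every WT heart. A total of 706 genes had a lower RNA fold change than Nbdy, and 2684 had a smaller p. The whole reads behind the RNA values did not separate the genotypes, with 82, 108, 87, 89 and 100 reads in KO hearts and 83, 84, 89 and 74 in WT hearts, and every KO RNA library was deeper than every WT one. As a share of all listed reads, Nbdy RNA was 4.42 to 6.33 RPM in KO and 6.05 to 7.43 RPM in WT, so that the groups overlapped on this scale. With libraries scaled to that sum the log2 fold change was -0.45 (limma adjusted p = 0.0147), while the median of all genes stood at 0.16 in place of 0.01. Genotype and a batch of RNA libraries cannot be told apart here, since no batch is labelled and depth separates the genotypes.

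Translational efficiency, the footprint signal divided by the RNA signal of the same heart, showed the loss of footprints beyond the loss of RNA. Both signals are per gene, and bases removed by the undescribed allele could not be told apart from a change in translation. It was 0.223, 0.216, 0.169, 0.147 and 0.212 in KO hearts 6, 7, 8, 9 and 10, against 0.929, 3.12, 1.34 and 1.19 in WT hearts 1, 2, 3 and 4. The highest KO heart lay 4.17 times below the lowest WT heart. The mean was 0.193 ± 0.0332 in KO and 1.64 ± 0.996 in WT (SD, n = 5 and 4), and KO stood at 11.8% of WT with all hearts and 16.8% without WT heart 2.

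In the limma model over all 18 libraries the genotype by assay term for Nbdy was -2.85 ± 0.44 (SE; 95% interval -3.77 to -1.94; adjusted p = 0.000275). Of 9974 genes tested, 14.4% passed, 6.55% lower and 7.83% higher in KO, and 8.73% had every KO heart below every WT heart. With the heart as a replicate block, which pairs both libraries of a heart, the value was the same and the adjusted p was 0.000674. The mean difference of log2 efficiency per heart was -2.94, with an exact permutation p of 0.0159, the smallest possible.

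Set against the other genes of the same heart, Nbdy efficiency was low in every KO heart, and from the lower to the upper range in WT hearts. In KO hearts 6, 7, 8, 9 and 10 it exceeded that of 6.97%, 6.83%, 5.85%, 4.57% and 5.72% of genes. In WT hearts 1, 2, 3 and 4 it exceeded that of 33.4%, 81.4%, 47.1% and 42.6% of genes. Some 493 genes had a lower mean efficiency than Nbdy in KO hearts. The ratio carries no correction for length, and a gene whose reading frame fills little of its transcript collects footprints over fewer bases than RNA reads, so the position of Nbdy among other genes is a description only.

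**Figure D2:**
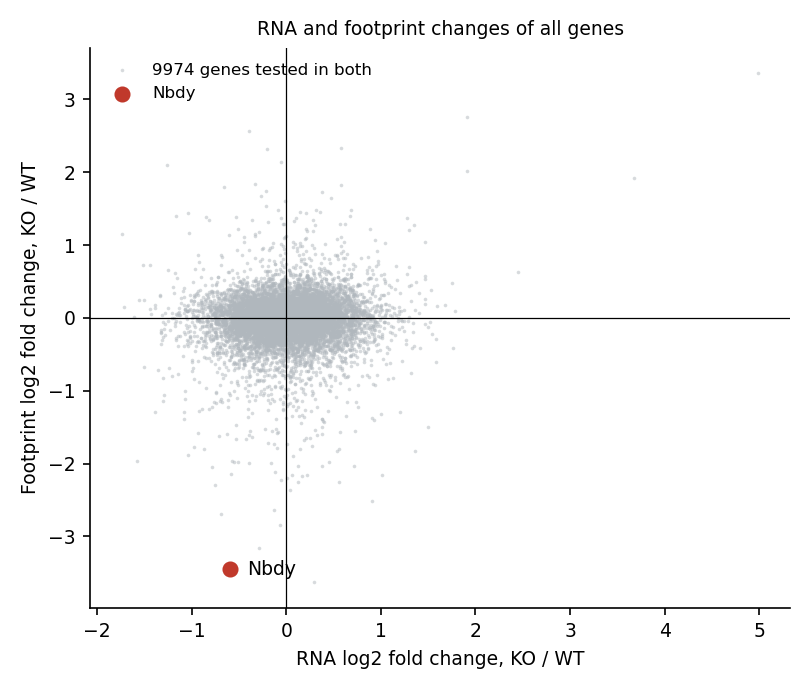
Log2 fold changes (KO over WT) of 9974 genes tested in both assays, with RNA on the x axis and footprints on the y axis; each grey point is a gene and Nbdy is in red. Nbdy lies at -0.59 in RNA, within the spread of the other genes, and at -3.45 in footprints, near the lower edge.

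Among footprint fold changes that of Nbdy was the second lowest of 9976, and its p was the smallest. The lower one belonged to Rsph3b, a radial spoke head gene, at -3.63 ± 1.52 (SE), which did not pass (limma adjusted p = 0.851). The SE of Nbdy was 0.48, against a median of 0.20 over all genes tested. In efficiency 6 genes had a lower fold change than Nbdy and 102 a smaller p. In the authors' deposited table of RNA, Nbdy has a log2 fold change of -0.55 with an adjusted p of 0.000619. In the authors' deposited table of footprints it has a log2 fold change of -1.15, much nearer to 0 than the -3.45 fitted here, while its p of 5.16e-17 is the smallest of all genes there. The sources used here do not say how the authors fitted it. In the authors' deposited table of efficiency Nbdy has 3.08, which there runs WT over KO, with an adjusted p of 5.11e-09. That table gives Nbdy the class "buffered", shared by 1609 genes. In the fits here Nbdy RNA and efficiency both fell in KO, at -0.59 and -2.85, so efficiency did not offset the RNA change.

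Summed markers of other muscle types separated the genotypes in the same libraries. The summed footprints of 4 skeletal muscle markers (Myh1, Myh2, Myh4 and Acta1) ranged from 14651 to 37448 normalized reads in KO and from 44729 to 82501 in WT. None of the 4 passed in footprints, and Acta1, at -1.25 ± 0.26 (SE; limma adjusted p = 0.293), made up most of the sum. Footprints of Myh1 and Myh2 stood slightly higher in KO, at 0.12 and 0.13, and those of Myh4 lower, at -0.25. Their summed RNA ranged from 37773 to 53636 in KO and from 68393 to 108252 in WT, and 3 of the 4 fell, where 25.1% of all genes did. None was at 0 in any library, and Acta1, skeletal alpha-actin, is also known in heart muscle. The summed RNA of 3 listed atrial markers (Myl7, Nppa and Myl4) ranged from 5257 to 8852 in KO and from 15049 to 16771 in WT. Myl4 fell by 1.56 and Nppa fell by 0.79 on the log2 scale, while Myl7, the least abundant of the 3, stood at 1.53 ± 0.96 (SE; limma adjusted p = 0.207), and the summed atrial footprints overlapped. The part of these cell types in the Nbdy values was not tested. Summed markers of ventricular cardiomyocytes, fibroblasts, endothelial cells and macrophages overlapped between genotypes in both assays, but single members passed in RNA, in both directions. Of 10 ventricular markers 2 rose and 4 fell, and of 4 fibroblast markers 1 rose and 0 fell. Of 4 endothelial markers 1 rose and 2 fell, and of 4 macrophage markers 2 rose and 1 fell. Among the macrophage markers Cd68 stood at -1.05 and Adgre1 at 0.53. Over all genes 24.3% rose and 25.1% fell. In footprints 0 of these markers passed.

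The 5 nearest listed genes on each side of Nbdy lay between 27.1 and 3807 kb from it. In RNA 3 rose and 2 fell among 10, a share near the 49.4% over all genes. Prdx4, an endoplasmic reticulum peroxiredoxin, rose by 0.81 ± 0.09, Mageh1, a member of the MAGE family, by 0.65 ± 0.19 and Kdm5c, a histone demethylase, by 0.23 ± 0.07 (SE; limma adjusted p = 2.89e-05, 0.0129 and 0.0177). Without WT heart 1 the call on Kdm5c was lost, at 0.18 (limma adjusted p = 0.0525). Tspyl2, a relative of the nucleosome assembly proteins, fell by 0.59 (limma adjusted p = 0.000298). Sms, the spermine synthase gene, fell by 0.54 (limma adjusted p = 6.48e-05). With libraries scaled to the same sum none of these 5 directions turned.

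In footprints the 9 neighbours tested had log2 fold changes from -0.79 to 0.25, against -3.45 for Nbdy. By limma, edgeR or DESeq2 0 of 9 passed, where 0.02% of all genes did by limma, and 1 had an unadjusted limma p below 0.05; Sms was under the minimum there. The closest gene, Kctd12b, had 332 ± 75.1 normalized footprint reads in KO and 385 ± 77.5 in WT (SD, n = 5 and 4), at -0.22 ± 0.21 (SE; limma adjusted p = 0.862). Ubqln2, a ubiquilin gene 222 kb away, had 1710 ± 122 in KO and 1568 ± 251 in WT, at 0.14 ± 0.13. The lowest value was that of Sat1, the spermidine acetyltransferase gene, at -0.79 ± 0.31 (limma adjusted p = 0.851), with 117 ± 28.2 in KO and 211 ± 89.8 in WT and overlapping hearts. In efficiency 1 of 9 neighbours passed, where 14.4% of all genes did, Prdx4 at -0.84 (limma adjusted p = 0.000559), with an RNA rise and no footprint change past the test.

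**Figure D3:**
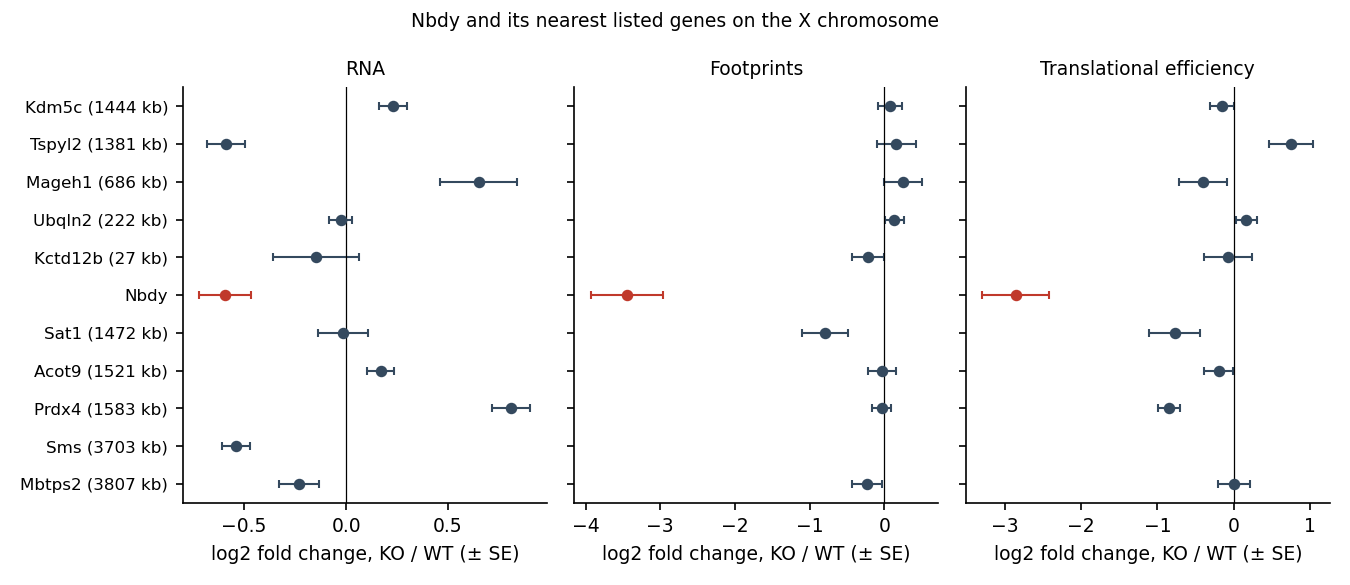
Log2 fold changes (KO over WT, with SE bars) of Nbdy, in red, and of the 5 nearest listed genes on each side along chromosome X, in dark blue, with the distance of each from Nbdy in kb; the 3 panels have their own x axes. In footprints Nbdy lies at -3.45 and its neighbours between -0.79 and 0.25; Sms was not tested in footprints or efficiency.

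Decapping and P-body proteins, the machinery with which NBDY is known to work, were taken as a list. Of its 22 genes, 19 were in the tables, and Dcp2, the decapping enzyme itself, Dcp1b and Nudt16 were not among the listed genes. Edc4, the scaffold that binds NBDY, had 1251 ± 206 normalized footprint reads in KO and 1215 ± 114 in WT (SD, n = 5 and 4), at 0.03 ± 0.14 (SE; limma adjusted p = 0.974). Its RNA was 922 ± 54.8 in KO and 781 ± 52.9 in WT with no overlap, and rose by 0.24 ± 0.06 (limma adjusted p = 0.00929). Edc3, an enhancer of decapping, had 176 ± 30.7 footprint reads in KO and 249 ± 38.5 in WT, at -0.50 ± 0.22 (limma adjusted p = 0.851), and RNA at -0.04. Dcp1a, the activator of Dcp2, had 229 ± 85.6 in KO and 186 ± 40.6 in WT, at 0.25 ± 0.28, and RNA at -0.10.

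Over that list, 0 of 18 genes passed in footprints by limma, edgeR or DESeq2, where 0.02% of all genes did by limma, and 1 had an unadjusted limma p below 0.05. The median footprint log2 fold change was -0.07 against -0.003 over all genes. In efficiency 0 of 18 passed by limma or edgeR, where 14.4% of all genes did by limma, and 3 had an unadjusted limma p below 0.05. The median there was 0.13 against -0.02, and 1 rose with the heart as a replicate block. In RNA 2 rose and 10 fell among 19, with a median of -0.25 against 0.01 over all genes, and 63.2% passed against 49.4% of all genes. The lowest values, picked after they were seen, were those of Pnrc2, a decapping cofactor, and Lsm4, part of the ring that binds the mRNA 3′ end, both at -0.66 (limma adjusted p = 1.80e-05 and 0.000118). With libraries scaled to the same sum the RNA counts were 3 rises and 4 falls, and without single hearts the falls numbered 7 to 11.

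Other microproteins were measured beside Nbdy. Of a list of 20 genes, 8 were in the tables, and 0 of 8 passed in footprints by limma, edgeR or DESeq2, where 0.02% of all genes did by limma, and 1 had an unadjusted limma p below 0.05. They had footprint log2 fold changes from -0.47 to 0.13 and a median of -0.18. Pln, phospholamban, which restrains the calcium pump of the sarcoplasmic reticulum, had 69914 ± 6062 normalized footprint reads in KO and 73097 ± 19634 in WT (SD, n = 5 and 4), at -0.03 ± 0.15 (SE; limma adjusted p = 0.974). Strit1, listed as Gm34302, encodes DWORF, which is known to relieve that restraint. It had 901 ± 491 in KO and 1355 ± 1163 in WT, at -0.31 ± 0.44 (limma adjusted p = 0.910). Without WT heart 2 the median of the list in footprints was 0.06, so its sign rests on that heart. In RNA 5 of the 8 rose and 3 fell, where 24.3% of all genes rose and 25.1% fell, a count that was 2 and 2 after quantile normalization, and 3 and 3 without WT heart 2, 3 or 4 or KO heart 8 or 9. In efficiency 1 rose and 2 fell, or 37.5% against 14.4% of all genes. The rise was lost with libraries scaled to the same sum (0 and 4), after quantile normalization (0 and 2), and without WT heart 1, 3 or 4 or KO heart 6, 7 or 8. With the heart as a replicate block 1 rose and 4 fell, and Strit1 passed at -1.24 (limma adjusted p = 0.00679, against 0.245 without the block). Sln, Mrln, Arln and Smim6, which also encode calcium pump microproteins, were not among the listed genes.

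Likeness to the Nbdy pattern was measured as Pearson's correlation of log2 values over 18 libraries, each assay centred on its own mean, for 9973 genes. The 5 highest were Lsp1, an actin-binding protein of leukocytes, at 0.91, Ttf1, a termination factor of ribosomal RNA transcription, at 0.88, Mindy3, a deubiquitinase, at 0.86, Pcolce2, an enhancer of procollagen processing, at 0.85, and Traf4, a signalling adaptor, at 0.84. The 99th percentile over all genes was 0.70. These points share their libraries and genotypes, so the values are descriptions.

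The 5 genes were lower in KO hearts by less than Nbdy. Ttf1 footprints were 45.1, 41.3, 51.3, 38.5 and 77.0 in KO hearts 6, 7, 8, 9 and 10, against 90.3, 148, 81.0 and 90.1 in WT hearts 1, 2, 3 and 4. All 5 genes had their highest footprint value in WT heart 2, as Nbdy did. By limma, edgeR or DESeq2 0 of 5 passed in footprints (limma adjusted p = 0.851 for each, 5 with an unadjusted limma p below 0.05), with log2 fold changes from -1.06 for Traf4 to -0.39 for Pcolce2. In 4 of the 5 every KO heart lay below every WT heart in footprints, the exception being Traf4, and this follows from the way they were chosen.

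**Figure D4:**
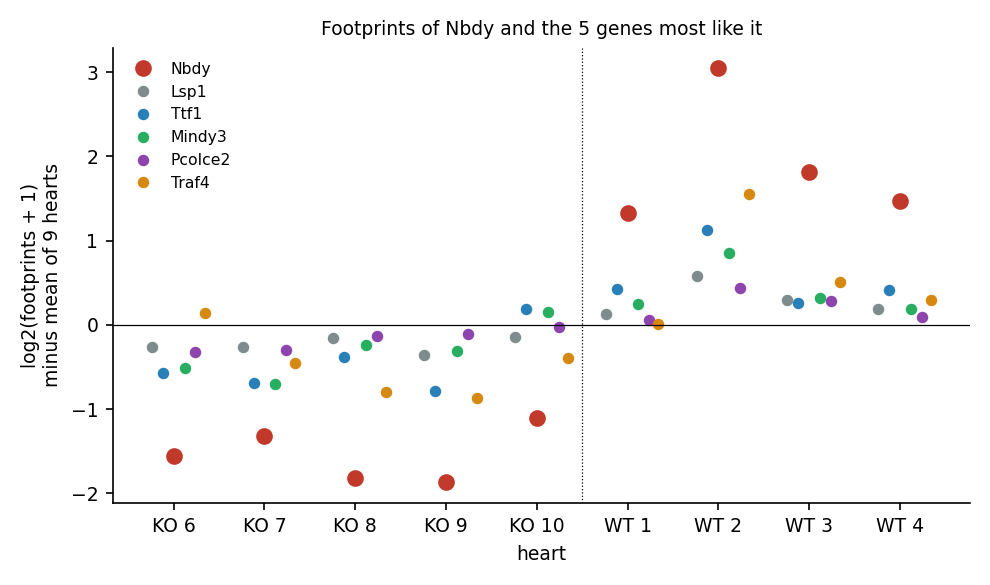
Footprints of Nbdy (large red points) and of the 5 genes with the most similar pattern in each heart, KO hearts first and then WT hearts, as log2(normalized reads + 1) minus the mean of the 9 hearts. Nbdy spans the widest range, and each of the 6 genes is highest in WT heart 2.

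The direction of the Nbdy values was the same in every alternative run. The log2 fold change ranged from -0.72 to -0.45 in RNA, from -3.66 to -3.07 in footprints and from -3.07 to -2.49 in efficiency. On whole reads, edgeR's quasi-likelihood test gave Nbdy footprints a log2 fold change of -3.65 with an adjusted p of 0.00331, and DESeq2 gave -3.66 with an adjusted p of 4.05e-13.

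**Figure D5:**
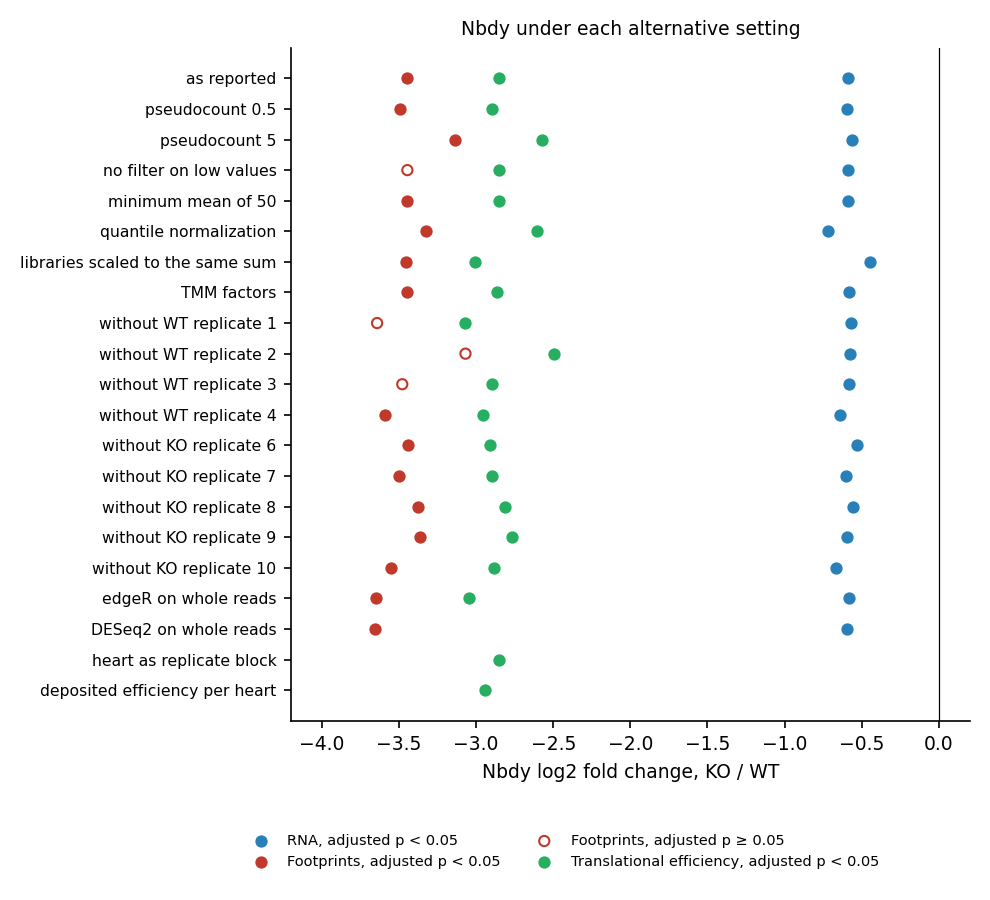
Log2 fold change of Nbdy (KO over WT) as reported and under each alternative, in RNA (blue), footprints (red) and translational efficiency (green); replicate numbers are heart numbers. Filled points have an adjusted p below 0.05, and the open points are footprint values that lost the call, without WT heart 1, 2 or 3 or with no filter on low values.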

How the data were processed

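The tools named are HTSeq, DESeq2 and STAR 2.7.1a, and the build GRCm38 (mm10), per the submitters' processing notes, which give no role or order. Per the labels' protocols, a TruSeq kit served for RNA and a NEXTflex kit for footprints. The authors deposited a normalized signal per library, which the values show to be gene counts divided by 1 factor per library. They also deposited the ratio of footprints to RNA (differing from the quotient by at most 0.0497%), and, per the file headers, log2 fold changes and p-values. The mean signal and the gene class are the authors' too, per the file headers.

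Every value was a whole multiple of 1 step per library (100% within 0.01 reads). Over the listed genes, 49.4% to 50.4% of the recovered RNA counts per library were even, and 51.5% to 53.1% of the footprint counts. The KO RNA libraries have few low values, which leaves the step less directly checked there. Symbols came from the gene name table (10560 of 10597 genes).

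Each assay was fitted by genotype in limma 3.58.1 (R 4.3.3, mean-variance trend, log2(value + 1), mean of at least 10), and efficiency as the genotype by assay term over 18 libraries. Whole reads were tested with edgeR 4.0.16 and DESeq2 1.42.0. The fits were checked on simulated data. Permutation tests were exact (scipy 1.17.1).

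Per the labels, libraries that share a number share a heart, which pairs them across assays. Between RNA and footprints of 1 heart, deviations from the genotype mean correlated at 0.197 to 0.503, and between different hearts at a median of -0.0744. Taking deviations from the genotype mean itself lowers the values between different hearts. For 8 of 9 hearts the RNA correlated best with the footprints of the same heart. Libraries of a group differed by more than sampling noise (lowest chi-square over its degrees of freedom 6.25). Nothing in the labels names litters or batches.

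The gene and the lists were chosen with earlier results of these data known. Named genes were Nbdy, defining members of the decapping list and calcium pump microproteins, list members past the footprint test, 5 listed genes on each side on chromosome X, and the 5 most alike over the libraries. A list by protein length was not analysed here.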

Additional observations from a re-analysis of the deposited data

Results flagged for a closer look

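Among the genes named in the report, single hearts stood far from the others of their group in 8 of 120 groups of values. Chance flags about 1 in 20, and this count is near that share. The gap from such a heart to the next, as a share of the group's range, passed Dixon's 95% critical value. In WT heart 2, Ttf1 footprints were high at 148, against 81.0 to 90.3 in the other WT hearts, Mindy3 footprints at 311, against 195 to 213, and Mindy3 efficiency at 2.46, against 1.42 to 1.56. Both genes were named for their likeness to Nbdy, whose own value in that heart, 355, stayed just short of the mark, with a gap of 0.824 of the range against a critical value of 0.829. In KO heart 8, Mbtps2 efficiency was high at 2.56, against 1.74 to 1.92 in the other KO hearts, Edc4 efficiency high at 1.72, against 1.19 to 1.32, and Prdx4 efficiency low at 3.79, against 4.77 to 4.87. In KO heart 9, Mageh1 footprints were high at 294, against 145 to 174, and Edc3 efficiency low at 1.23, against 1.76 to 1.95.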

How the results depend on the processing

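Nbdy RNA and efficiency kept their direction and passed under all 18 and 19 alternatives, with adjusted p from 0.000613 to 0.0147 and from 0.000152 to 0.00212. Nbdy footprints kept their direction under all 18 and passed under 14. Leaving out each heart gave -3.64 to -3.07 (limma adjusted p from 0.0186 to 0.194). With no filter on low values the footprint log2 fold change was still -3.45, at adjusted p = 0.105; 285 genes at 0 in every footprint library enter that fit, and the cause was not tested. The paired fit with a replicate block gave -2.85 for efficiency (adjusted p = 0.000674), and limma on the deposited ratio -2.94. The difference of log2 efficiency per heart stayed between -3.16 and -2.58, with exact p up to 0.0357, the smallest that 5 and 3 hearts allow. With libraries scaled to the same sum, the median of all genes shifted by 0.14 in RNA and -0.15 in efficiency. In KO hearts the footprint value rests on 11 to 25 reads a library.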
